A study of Mus musculus with 10 samples.

Results

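The genes described here encode collagens and other proteins of the extracellular matrix, the enzymes that process collagen, and the platelet-derived growth factor receptors of stromal cells. They were chosen by name, as 40 genes, with earlier results of these data known. On the array 38 of them, of 8251 genes so annotated, had a probe set annotated to that gene alone, and Fbn1 and Thbs1 had none. The 38 genes had 62 of the 12422 probe sets analysed. Of these 57 lay above the detection floor on at least 2 arrays and were tested among 9899 probe sets, and each of the 38 genes kept at least 1. The genes fall into fibrillar collagens (5 genes), type VI collagen (3), collagen processing (3), basement membrane (8), elastic fibre (6 measured of 7), matricellular and adhesive proteins (5 measured of 6), proteoglycans with Mgp (6) and PDGF receptors (2).

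The samples were mammary tumours taken from adult females at 90 days of age, and total RNA was hybridised to 10 Affymetrix mg_u74av2 arrays. The series title places the study in MMTV-PyMT transgenic mice, whose tumours arise because the MMTV promoter expresses an oncogene of polyomavirus, the middle T antigen, in the mammary epithelium. Titles gave the strain name of 9 arrays: FVBn on 1 array, and ILn, LP, MOLF and NZB on 2 arrays each, lettered A and B. All 10 arrays carry the same strain label, FVB/Nj, so the groups rest on the titles, which also describe each of the 9 as a mix and do not say of what. Each of the strain names is therefore represented by at most 2 arrays whose animals and tumours are not described, and no label says that A and B come from separate animals. P-values then measure only the spread between arrays, which may be technical. The array without a strain name entered no comparison. The luminal keratins Krt8 (10.81 to 11.38) and Krt18 (10.18 to 11.06, by its brighter probe set) were well above the floor on the 9 strain arrays. The basal keratins Krt5 and Krt14 were at the floor, 4.75, on all 10 arrays. Other basal and myoepithelial markers were above it on the 9 strain arrays: Acta2 (7.50 to 8.58), Mylk (7.85 to 9.32), Krt17 (6.04 to 7.85, by its brightest probe set) and Trp63 (5.80 to 6.74). Cnn1 and Myh11 were at the floor on some of them.

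The fibrillar collagens form the fibres that give connective tissue its strength, and fibroblasts are their main source. Type IV collagen, laminins and nidogen make the basement membrane, the thin sheet under epithelium and around vessels. Elastin, fibulins and microfibril proteins build elastic fibres, while matricellular proteins and small proteoglycans regulate how cells and fibres assemble. In mammary tumours these transcripts are a common readout of the stroma around the epithelial tumour cells.

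Values are quantile normalized log2 intensity. Values under the floor of 4.75 were raised to it. A difference can be understated where the arrays at the floor are in the lower group, and overstated where they are in the higher one. A difference is the mean of a strain minus the mean of the other 3 strains that have 2 arrays, tested with limma over all 9899 probe sets. A call is a Benjamini-Hochberg adjusted p under 0.05. FVBn, with 1 array, was compared with the mean of the other 4 strains and assumed to vary as they do. The 4 comparisons of single strains use the same 8 arrays and are not independent of each other. For each probe set their 4 differences cancel out, so a high strain lowers the differences of the other 3. Arrays MOLF A and NZB B stood apart before normalization, with deposited medians of 6.44 and 6.40 in log2. The other strain arrays had 5.95 to 6.03, apart from ILn A (7.77), which was deposited on a larger scale. After normalization the MOLF and NZB pairs differed most. The SD of the A minus B difference over all tested probe sets was 0.86 in MOLF and 0.91 in NZB, against 0.38 in ILn and 0.47 in LP. Over the matrix genes these SDs were 0.76, 0.72, 0.36 and 0.39.

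Most matrix transcripts were highest in ILn among the 4 replicated strains. The fibrillar collagen Col3a1 measured 2.02-fold and a probe set of Col1a2 3.12-fold above the mean of LP, MOLF and NZB, and both passed the test, although the other Col1a2 probe set went the other way. The median difference of ILn over the 38 genes was 0.55 log2 units, against -0.02 over all tested probe sets, with a range from -0.45 to 1.60 and 29 genes above 0. ILn had the highest mean of the 4 strains for 24 genes (63.2%, against 26.5% of all tested probe sets), NZB for 9, MOLF for 3 and LP for 2. The lowest mean was in MOLF for 16 genes (42.1%, against 24.2% of all tested), in LP and NZB for 10 each, and in ILn for 2. Because the genes were chosen with earlier results of these data known, these shares describe the list and do not test it.

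**Figure D1:**
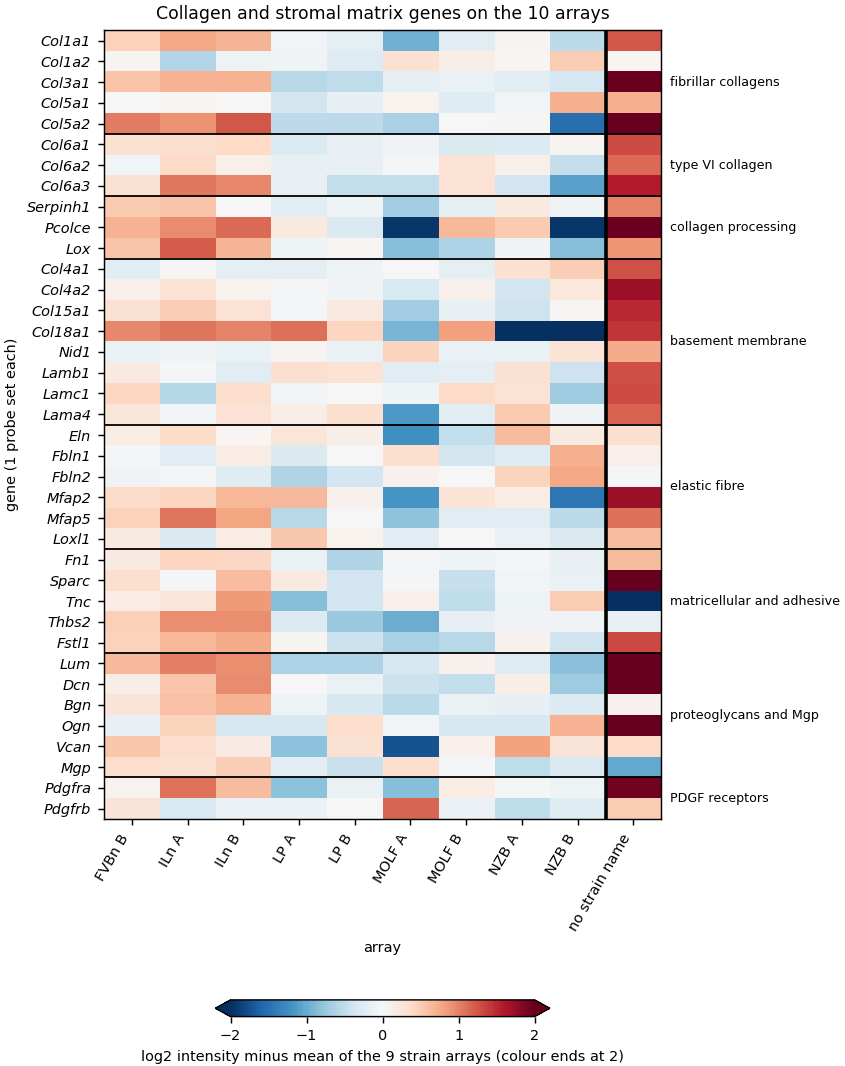
Log2 intensity of the 38 matrix genes (rows, 1 probe set each, grouped by class) on the 10 arrays (columns), as the difference from each gene's mean over the 9 strain arrays, with colour ending at 2 log2 units. Both ILn columns are mostly red, the deepest blue cells of the strain arrays are Pcolce on MOLF A and NZB B and Col18a1 on both NZB arrays, and the array without a strain name, set apart by a line, is red for most genes.

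In the F test over ILn, LP, MOLF and NZB 1 of the 38 genes passed by its own probe set (0.748% of all tested probe sets did): Col3a1, at an adjusted p of 0.039 in limma. Against the other strains 1 gene passed as higher in ILn (0.364% of all tested probe sets) and 0 as lower (0.0404%). Without the adjustment 17 of 38 genes had a p under 0.05, against 7.11% of all tested probe sets. Both ILn arrays lay above all 6 arrays of LP, MOLF and NZB for 16 genes (6.6% of all tested) and below all 6 for 0 (3.77%). The 16 were Col1a1, Col3a1, Col5a2, Col6a1, Col6a3, Pcolce, Lox, Col15a1, Mfap5, Fn1, Thbs2, Fstl1, Lum, Dcn, Bgn and Pdgfra. Without MOLF A and NZB B the count was 19 (9.65% of all tested), ILn was highest in 26, and the call of Col3a1 ended (adjusted p = 0.0799 in limma).

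Col3a1 encodes the chain of type III collagen, which forms fine fibres together with type I collagen. Its brightest of 3 probe sets measured 9.79 and 9.78 on ILn A and B, 8.53 and 8.58 on LP, 8.92 and 8.96 on MOLF, 8.87 and 8.74 on NZB, and 9.66 on FVBn. The ILn pair lay above all others, FVBn came next, and the LP pair was lowest. ILn exceeded the mean of LP, MOLF and NZB by 1.02 log2 units (SE 0.118, 2.02-fold, adjusted p = 0.016 in limma). The size hardly moved between settings (1.0 to 1.19), but the call ended under median centring (adjusted p = 0.303), with the title date as a block (0.219), with the array letter as a replicate block (0.0626), and without ILn A (0.35), ILn B (0.324), LP A (0.0897), LP B (0.0872) or MOLF A (0.0505). The dimmest measured 6.47 and 6.45 on ILn, 5.10 and 5.22 on LP, 5.24 and 5.44 on MOLF, 5.75 and 4.75 on NZB, and 6.61 on FVBn. Its ILn arrays were again above LP, MOLF and NZB, by 1.21 (SE 0.321, adjusted p = 0.355 in limma). The third probe set showed no separation: 7.44 and 6.69 on ILn lay within the 6.44 to 7.88 of the other 3 strains (difference -0.03).

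Col1a2 encodes the second chain of type I collagen, the main fibre of most connective tissue. The dimmer of its 2 probe sets measured 10.27 and 10.31 on ILn, 8.71 and 8.53 on LP, 8.80 and 8.89 on MOLF, 8.62 and 8.33 on NZB, and 9.75 on FVBn. Both ILn arrays lay more than 1 log2 unit above every array of LP, MOLF and NZB, and FVBn lay between. The difference of ILn was 1.64 (SE 0.136, 3.12-fold, adjusted p = 0.00315, and 0.0108 in the F test, both in limma). The call ended under median centring (adjusted p = 0.0636), with the title date as a block (0.0525), and without ILn A (0.123) or ILn B (0.124). The brighter probe set went the other way: 9.07 and 9.55 on ILn, 9.58 and 9.40 on LP, 9.96 and 9.77 on MOLF, 9.70 and 10.17 on NZB, and 9.72 on FVBn. Its ILn pair was among the lowest values, at a difference of -0.45 (SE 0.185, adjusted p = 0.663 in limma). Being the brighter, it is the one that stands for Col1a2 in the counts over 38 genes.

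Col1a1 encodes the first chain of type I collagen. Its brighter probe set measured 11.17 and 11.07 on ILn, 10.34 and 10.20 on LP, 9.43 and 10.17 on MOLF, 10.45 and 9.87 on NZB, and 10.85 on FVBn. ILn and FVBn were the highest of the 9 arrays, and ILn exceeded the other 3 strains by 1.04 (SE 0.225, 2.06-fold, adjusted p = 0.22 in limma). The other probe set had both ILn arrays (9.55 and 9.65) below all 6 others, the lowest of which was 9.71, by a difference of only -0.22 (SE 0.106, adjusted p = 0.761 in limma). The probe sets of one gene thus gave different orders of the strains.

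**Figure D2:**
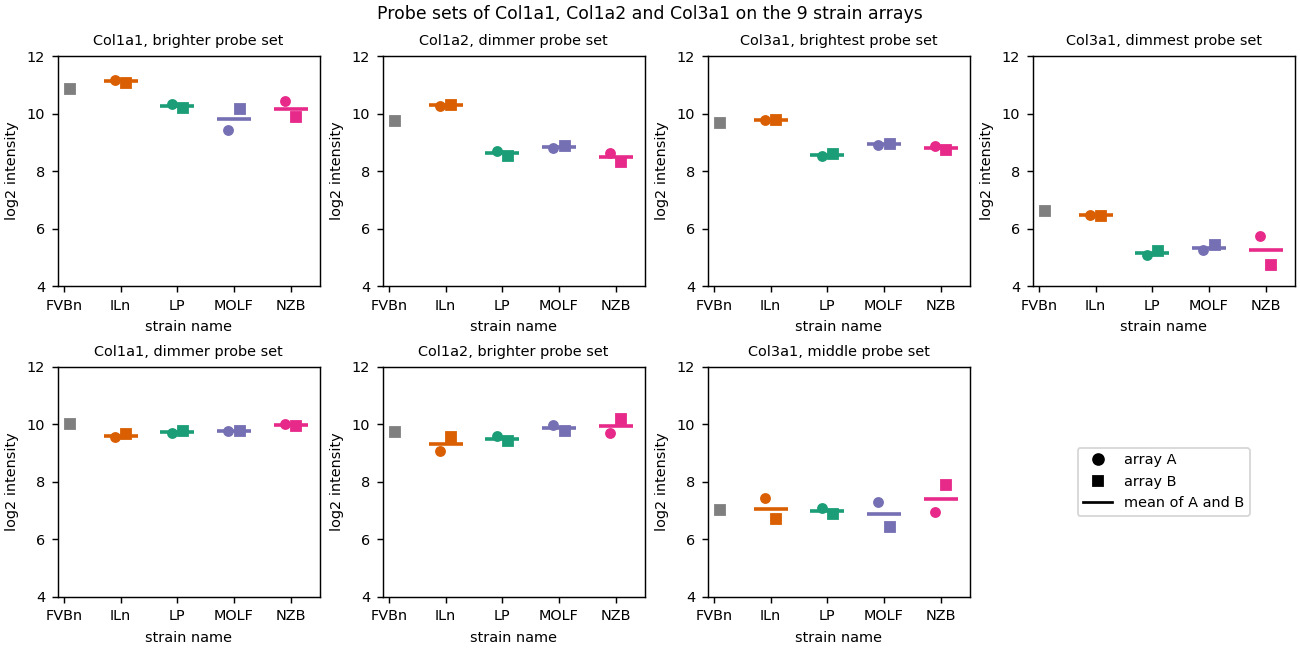
Log2 intensity of each probe set of Col1a1, Col1a2 and Col3a1 by strain name on the 9 strain arrays, with circles for array A, squares for array B and a line at the mean of the 2 (FVBn has 1 array). The ILn points stand above LP, MOLF and NZB in the 4 upper panels, and the 3 lower panels, of other probe sets of the same genes, do not show this.

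Col5a2, a chain of type V collagen that sits inside the thicker fibres, measured 8.61 and 8.96 on ILn, 7.19 on both LP arrays, 7.06 and 7.71 on MOLF, 7.74 and 6.21 on NZB, and 8.76 on FVBn. ILn and FVBn again formed the upper group without overlap with the rest, and the ILn difference was 1.60 (SE 0.401, 3.04-fold, adjusted p = 0.321 in limma). Col5a1, its partner chain, differed by 0.02 by its brighter probe set and by 1.63 (SE 0.45, adjusted p = 0.376 in limma) by its dimmer one. The median over the 5 fibrillar collagens was 1.02, with 4 above 0. Of the 5 genes 1 was called higher (0.364% of all tested probe sets) and 3 were without overlap (6.6%).

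Because Col1a2 and Col3a1 carried the calls, the 250 bases before their annotated starts are shown, 5′ to 3′ on the coding strand, from RefSeq on GRCm38.p6. The Col1a2 window is chr6:4505368-4505617 (+), with 62.0% GC, and the Col3a1 window is chr1:45311288-45311537 (+), with 35.2% GC. Capitals mark the match to the letters CCAAT in Col1a2, whose first base lies at -109 from the start. In Col3a1 they mark the match to TATAAA at -117.
Col1a2: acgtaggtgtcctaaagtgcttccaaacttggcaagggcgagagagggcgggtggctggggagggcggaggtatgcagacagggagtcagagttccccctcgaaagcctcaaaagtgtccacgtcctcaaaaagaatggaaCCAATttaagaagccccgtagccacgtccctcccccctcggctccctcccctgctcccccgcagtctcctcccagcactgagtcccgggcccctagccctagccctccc
Col3a1: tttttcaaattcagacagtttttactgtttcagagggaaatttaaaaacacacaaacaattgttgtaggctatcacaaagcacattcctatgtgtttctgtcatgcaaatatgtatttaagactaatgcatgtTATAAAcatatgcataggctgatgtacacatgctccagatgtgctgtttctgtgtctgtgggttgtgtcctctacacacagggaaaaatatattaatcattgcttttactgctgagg
Both motifs were searched on both strands, and they do not overlap each other in these windows. The table of promoters held 26 of the 40 genes. CCAAT lay in the windows of 9 of these genes and TATAAA in those of 4, against 33.8% and 12.4% of all 32851 windows of the same length. The counts are not on the same footing: a gene with several windows counted if any of them matched, and the shares are per window. The 2 collagen promoters thus share neither motif nor base composition. A match is only a match of letters, and the absence of one says nothing of a factor.

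Type VI collagen, a beaded filament network around cells, is built of the chains of Col6a1, Col6a2 and Col6a3. Col6a3 measured 9.77 and 9.67 on ILn, 8.56 and 8.22 on LP, 8.22 and 9.0 on MOLF, 8.33 and 7.62 on NZB, and 9.01 on FVBn. Both ILn arrays were the highest of the 9, by 1.39 (SE 0.266, 2.63-fold, adjusted p = 0.138 in limma). Col6a1 also had ILn highest and FVBn next, on a smaller scale. It measured 9.55 and 9.63 on ILn, 8.95 and 9.09 on LP, 9.16 and 8.94 on MOLF, 8.95 and 9.28 on NZB, and 9.53 on FVBn (ILn difference 0.52, SE 0.144, adjusted p = 0.376 in limma). The third chain, Col6a2, differed by 0.31 with overlap, and the median of the class was 0.52.

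Among genes of collagen processing, Lox, the enzyme that cross-links collagen and elastin, measured 6.82 and 6.28 on ILn, 5.51 and 5.62 on LP, 4.75 and 4.98 on MOLF, 5.54 and 4.75 on NZB, and 6.18 on FVBn. ILn was above all arrays of the other 3 strains, by 1.36 (SE 0.311, adjusted p = 0.252 in limma), with MOLF A and NZB B at the floor. A dimmer probe set of Lox differed by -0.40. Pcolce, which enhances the cleavage of procollagen, measured 7.64 and 7.82 on ILn, 6.89 and 6.40 on LP, 4.75 and 7.34 on MOLF, 7.22 and 4.75 on NZB, and 7.39 on FVBn. Its ILn difference was 1.50 (SE 0.812, adjusted p = 0.789 in limma), and within MOLF and NZB the 2 arrays differed by more than that. Over the 4 arrays ILn B, LP B, MOLF B and NZB A, which leave out both floor values, it was 0.83. Serpinh1, the collagen chaperone of the endoplasmic reticulum, differed by 0.46 (SE 0.208) with overlap.

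The basement membrane genes did not share this order. Their median ILn difference was 0.05, with 4 of 8 above 0. The largest was that of Col18a1, at 1.53 (SE 0.45, adjusted p = 0.403 in limma), with overlap. By the brightest probe set of each gene only Col15a1, a basement membrane collagen, was free of overlap (0.57, SE 0.245, adjusted p = 0.71 in limma), as were 6.6% of all tested probe sets. Col4a1, the main chain of type IV collagen, measured 9.09 and 8.89 on ILn, 8.88 and 8.98 on LP, 9.07 and 8.89 on MOLF, 9.37 and 9.56 on NZB, and 8.83 on FVBn. Both NZB arrays were the highest, by 0.50 (SE 0.136, adjusted p = 0.381 in limma), and the others lay within a narrow band. Col4a2, its partner chain, did not follow: NZB A was the lowest of its 9 values (8.39) and NZB B the second after ILn A (8.98 against 9.05), for an NZB difference of -0.08. The 2 genes lie head to head on chromosome 8 in GRCm38.p6. Col4a1 runs on the minus strand from 11312826 and Col4a2 on the plus strand from 11312805. Their annotated starts are 21 bases apart, and the 2 genes overlap between these positions.

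Col18a1 varied most of all 38 genes between strains. It encodes type XVIII collagen, a basement membrane proteoglycan whose end fragment is endostatin. Its brightest probe set measured 5.02 and 5.31 on NZB, against 8.46 and 8.37 on ILn, 8.48 and 7.81 on LP, 6.46 and 8.21 on MOLF, and 8.35 on FVBn. Both NZB arrays lay more than 1 log2 unit below the next value, MOLF A, and NZB was 6.96-fold below the mean of the other 3 strains (log2 difference -2.80, SE 0.45, adjusted p = 0.123 in limma). Without MOLF A the difference became -3.15 and passed (adjusted p = 0.022). The other 3 tested probe sets of Col18a1 were dim and did not separate NZB: their NZB differences were -0.47, -0.42 and -0.27. One of them measured 6.40 and 5.51 on ILn and 5.95 on FVBn, and lay at or near the floor on all LP, MOLF and NZB arrays (4.75 to 4.87).

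Lama4, a laminin chain of vessel walls, measured 6.39 and 7.30 on MOLF, below all other values (7.47 and 7.82 on ILn, 7.67 and 7.85 on LP, 8.05 and 7.46 on NZB, and 7.77 on FVBn). The MOLF difference was -0.87 (SE 0.309, adjusted p = 0.612 in limma). Lamb1 and Lamc1, the laminin chains common to many basement membranes, differed in ILn by -0.14 and -0.08. The dimmer probe set of Lamb1 differed by 0.07 in ILn. In NZB it differed by 0.96 (SE 0.353, adjusted p = 0.541 in limma), with both NZB arrays above all arrays of ILn, LP and MOLF. Nid1, nidogen, which links laminin to type IV collagen, was close to the floor throughout (4.75 to 5.33 on the 9 arrays).

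Elastic fibre genes were also mixed, with a median ILn difference of 0.12 and 3 of 6 above 0. By the brightest probe set of each gene, Mfap5, a microfibril glycoprotein, was the 1 gene of the class without overlap in ILn (6.6% of all tested probe sets). It measured 8.13 and 7.86 on ILn, 6.51 and 7.06 on LP, 6.26 and 6.86 on MOLF, 6.84 and 6.54 on NZB, and 7.52 on FVBn (ILn difference 1.32, SE 0.295, adjusted p = 0.238 in limma). Eln, elastin itself, was low in MOLF instead. Its brighter probe set measured 8.14 and 8.88 on MOLF, 9.73 and 9.40 on ILn, 9.61 and 9.48 on LP, 10 and 9.54 on NZB, and 9.51 on FVBn, for a MOLF difference of -1.11 (SE 0.229, 2.16-fold, adjusted p = 0.194 in limma). The other Eln probe set behaved quite differently. It was high only on MOLF A (8.41) and NZB B (9.48), the pair of arrays that stand apart, and lay at 4.75 to 5.83 on the other 7.

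Fbln2, a fibulin of elastic fibres and basement membranes, was highest in NZB and lowest in LP. It measured 9.06 and 9.39 on NZB, 8.02 and 8.24 on LP, 8.59 and 8.38 on ILn, 8.70 and 8.63 on MOLF, and 8.55 on FVBn. Neither end overlapped with the other strains: the NZB difference was 0.80 (SE 0.16, adjusted p = 0.216 in limma) and the LP difference -0.66 (SE 0.16, adjusted p = 0.315). Fbln1 and Loxl1 differed by -0.05 and -0.06 in ILn, and Mfap2 by 0.79 (SE 0.55) with NZB B at the floor. For Fbln1 that is the brightest of 3 tested probe sets, and the next differed by 0.23 with overlap. The dimmest had both ILn arrays above all arrays of LP, MOLF and NZB, by 1.19 (SE 0.418, adjusted p = 0.567 in limma). On that probe set MOLF A and NZB B were at the floor.

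**Figure D3:**
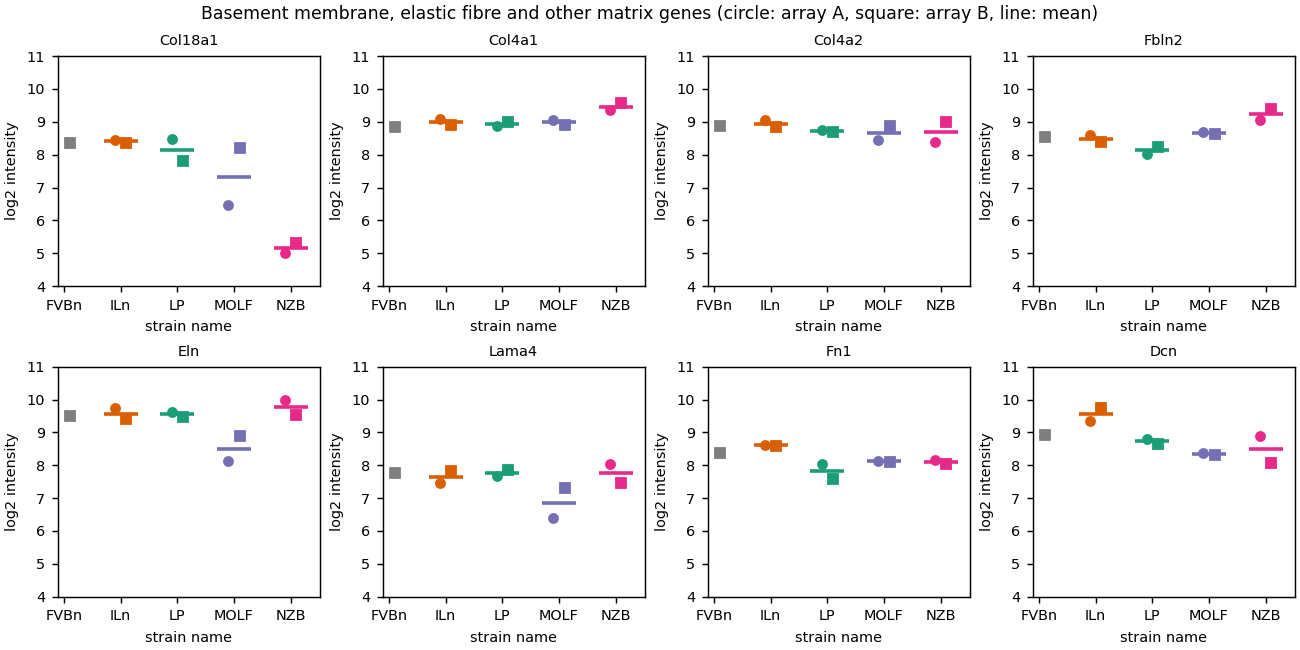
Log2 intensity of 8 matrix genes by strain name on the 9 strain arrays (circle for array A, square for array B, line for the mean). NZB is low for Col18a1 and high for Col4a1 and Fbln2, MOLF is low for Eln and Lama4, and ILn is high for Fn1 and Dcn.

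The matricellular and adhesive genes had a median ILn difference of 0.74, with 5 of 5 above 0. Of them 3 were without overlap (6.6% of all tested probe sets) and 0 were called higher (0.364%). Thbs2, a thrombospondin that binds matrix and enzymes, measured 7.24 on both ILn arrays, 6.04 and 5.57 on LP, 5.32 and 6.16 on MOLF, 6.25 and 6.24 on NZB, and 6.80 on FVBn. ILn was highest, by 1.31 (SE 0.339, adjusted p = 0.341 in limma). Fstl1, a secreted glycoprotein related to SPARC, measured 7.68 and 7.76 on ILn, 7.07 and 6.59 on LP, 6.37 and 6.45 on MOLF, 7.10 and 6.62 on NZB, and 7.47 on FVBn. It was without overlap at both ends, with ILn above by 1.02 (SE 0.271, adjusted p = 0.358 in limma) and MOLF below, at a difference of -0.73 (SE 0.271, adjusted p = 0.655).

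Fn1, fibronectin, on which collagen fibres assemble, measured 8.62 and 8.60 on ILn, 8.05 and 7.58 on LP, 8.14 and 8.10 on MOLF, 8.15 and 8.04 on NZB, and 8.37 on FVBn. The ILn pair was above the rest by 0.60 (SE 0.178, adjusted p = 0.409 in limma). Sparc, a collagen-binding glycoprotein, did not separate the strains. It measured 8.78 and 9.44 on ILn, 9.0 and 8.43 on LP, 8.79 and 8.36 on MOLF, 8.76 and 8.68 on NZB, and 9.14 on FVBn (ILn difference 0.44, SE 0.241). Tnc, tenascin-C, differed by 0.74 (SE 0.343) in ILn with overlap, and by -0.09 by its dimmer probe set.

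Of the proteoglycans, Lum, lumican, which spaces collagen fibrils, measured 8.71 and 8.63 on ILn, 7.08 and 7.09 on LP, 7.37 and 7.79 on MOLF, 7.45 and 6.87 on NZB, and 8.36 on FVBn. ILn exceeded the other 3 strains by 1.40 (SE 0.229, 2.64-fold, adjusted p = 0.0767 in limma), close to the threshold. Bgn, biglycan, measured 10.73 and 10.84 on ILn, 10.05 and 9.83 on LP, 9.61 and 10.01 on MOLF, 9.98 and 9.87 on NZB, and 10.40 on FVBn. Its ILn difference of 0.89 (SE 0.143, 1.86-fold) also came close (adjusted p = 0.0701 in limma), and its dimmer probe set differed by 0.11. Dcn, decorin, the proteoglycan most bound to collagen fibrils, measured 9.35 and 9.74 on ILn, 8.80 and 8.66 on LP, 8.36 and 8.30 on MOLF, 8.90 and 8.08 on NZB, and 8.92 on FVBn. For these 3 genes ILn was highest and FVBn next, though for Dcn level with NZB A (8.90), and the Dcn difference in ILn was 1.03 (SE 0.23, adjusted p = 0.238 in limma).

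Vcan, versican, the large proteoglycan of loose matrix, was scattered. It measured 6.85 and 6.67 on ILn, 5.68 and 6.81 on LP, 4.75 and 6.60 on MOLF, 7.31 and 6.76 on NZB, and 7.06 on FVBn. Its low values were LP A and MOLF A, each with its partner near the other strains. Mgp, matrix Gla protein, which restrains calcification, differed by 0.58 (SE 0.167) in ILn, and Ogn, osteoglycin, by 0.05. All 6 genes of the class were above 0 in ILn, with a median of 0.74. Of them 3 were without overlap (6.6% of all tested probe sets) and 0 were called higher (0.364%).

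The PDGF receptors mark different stromal cells: Pdgfra is typical of fibroblasts and Pdgfrb of pericytes. Pdgfra measured 8.47 and 8.02 on ILn, 6.57 and 7.26 on LP, 6.53 and 7.53 on MOLF, 7.35 and 7.28 on NZB, and 7.46 on FVBn. ILn was above all other arrays, by 1.16 (SE 0.338, adjusted p = 0.401 in limma), while the dimmer probe set differed by -0.18. Pdgfrb measured 5.05 and 5.21 on ILn, 5.24 and 5.34 on LP, 6.51 and 5.24 on MOLF, 4.84 and 5.11 on NZB, and 5.61 on FVBn. It was dim and level apart from MOLF A, with an ILn difference of -0.25 (SE 0.343).

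**Figure D4:**
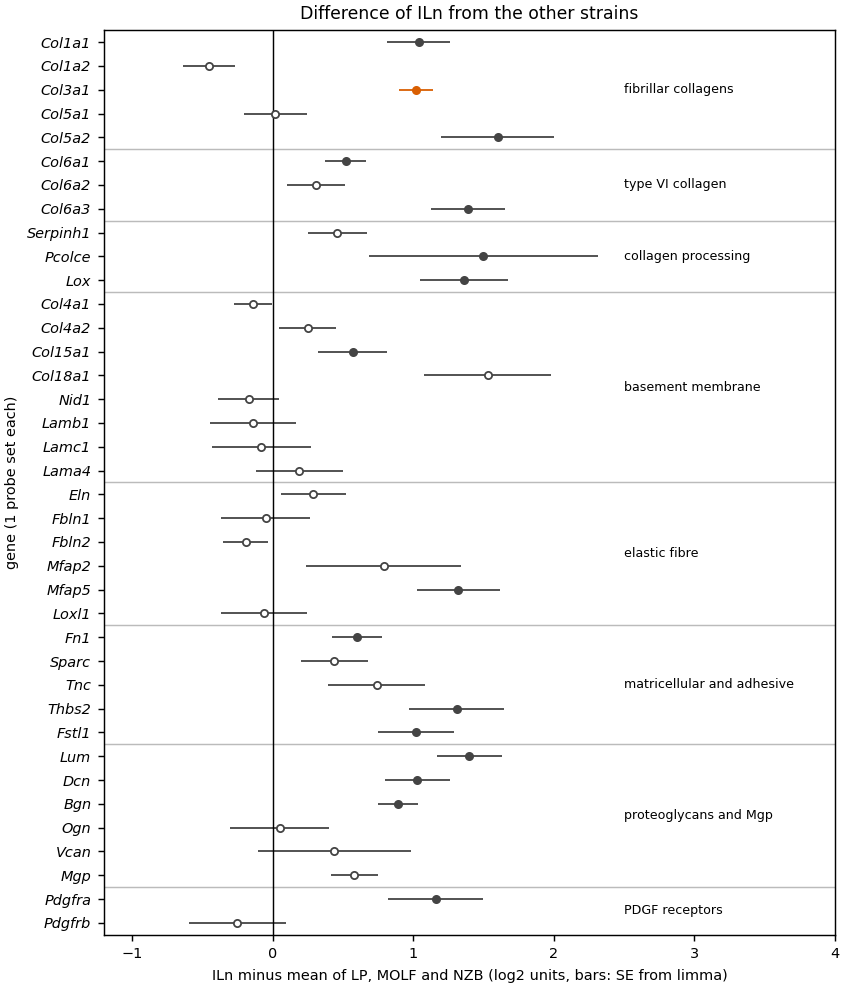
Difference of ILn from the mean of LP, MOLF and NZB for the 38 matrix genes, in log2 units with the SE from limma as bars. Filled points are genes whose 2 ILn arrays lie above all 6 others (16 genes), the orange point is the 1 gene past the test, Col3a1, and points right of 0 are the 29 genes higher in ILn; most open points near 0 belong to the basement membrane and elastic fibre classes.

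Of the 38 genes 15 had more than 1 tested probe set, and for 10 of these the ILn differences had both signs: Col18a1, Col1a1, Col1a2, Col3a1, Eln, Fbln1, Lamb1, Lox, Pdgfra and Tnc. The gene values above are therefore values of the named or brightest probe set.

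LP, MOLF and NZB lay below ILn in most matrix genes, and no gene passed the test in any of the 3. Each was set against a mean that includes ILn, so the high ILn values lower these differences. The medians and the counts of genes below 0 therefore partly restate the ILn result. In LP the median difference was -0.19, with 28 of 38 genes below 0, and 0 genes were called higher (0.192% of all tested probe sets) or lower (0.121%). Both LP arrays lay below all others for Col3a1 (-0.62, SE 0.118, adjusted p = 0.163 in limma) and Fbln2, 2 genes (2.55% of all tested), and above all others for 0 (4.47%). Without the adjustment 5 genes had a p under 0.05 (5.69% of all tested). The Col3a1 difference passed when dim probe sets were not filtered out (adjusted p = 0.0237 in limma), where 37 probe sets passed in all in place of 31. The LP median was -0.04 under median centring, where 22 genes were below 0.

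In MOLF the median difference was -0.25, with 30 genes below 0 and 0 called higher (0.131% of all tested) or lower (0.283%). Eln, Lama4 and Fstl1 were the 3 genes with both MOLF arrays below all others (3.38% of all tested), and 0 had both above (2.84%). Without the adjustment 8 genes had a p under 0.05 (6.42% of all tested). The median was -0.16 without MOLF A.

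In NZB the median difference was -0.11, with 26 genes below 0 and 0 called higher (0.0404% of all tested) or lower (0.0606%). Fbln2 and Col4a1 had both NZB arrays above all others (2 genes, 3.74% of all tested), and Col18a1 had both below (1 gene, 4.24%). Without the adjustment 8 genes had a p under 0.05 (8.4% of all tested). The median moved between -0.23 without NZB A and -0.04 without NZB B.

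The FVBn array was above the mean of the 4 strains for 31 of 38 genes, with a median difference of 0.31 against -0.02 over all tested probe sets, and 0 genes were called higher (0.222% of all tested) or lower (0.0909%). At an unadjusted p under 0.05 there were 2 genes (3.41% of all tested). They were Col3a1 (0.64, SE 0.153, adjusted p = 0.456 in limma) and Lum (0.74, SE 0.297, adjusted p = 0.999). With dim probe sets not filtered out Col3a1 had an adjusted p of 0.0209 in limma, but the calls over all probe sets then numbered 102 in place of 31, and the spread of this 1 array is borrowed from the other strains. The FVBn median was 0.20 with the title date as a block and 0.22 without MOLF A and NZB B.

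The title dates put ILn A with NZB B, LP A with MOLF A, and the other 5 strain arrays together. Within those 5 arrays, 1 per strain, ILn B was above the mean of LP B, MOLF B and NZB A for 30 of 38 genes, with a median of 0.57, and by 0.98 for Col3a1. ILn A exceeded NZB B for 29 genes (median 0.53), and LP A exceeded MOLF A for 23 (median 0.23). The lower array of each of these pairs, NZB B or MOLF A, is one that stood apart, so the pairs are a weak check of the date. With the title date as a block the ILn median was 0.59 and no matrix gene passed.

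Other genes of the matrix pathway were counted from lists of related genes, with no call in any comparison. Collagen biosynthesis enzymes (5 measured of 11) had a median ILn difference of 0.33. Further matrix genes (25 of 36) had 0.10, TGF-beta signalling (10 of 13) 0.25, matrix receptors such as integrins (12 of 14) -0.06 and the PDGF ligands (2 of 2) 0.38. Among the further matrix genes Col11a1, a minor fibrillar collagen, differed by 1.70 (SE 0.403, adjusted p = 0.28 in limma). Col12a1 went the other way, by -0.86 (SE 0.34, adjusted p = 0.653 in limma), with both ILn arrays below all arrays of LP, MOLF and NZB. Of the laminin chains in this list, Lamb3 differed by 1.65 (SE 0.617, adjusted p = 0.616 in limma) without overlap. Lama2 differed by 0.18, Lama5 by 0.13 and Lamb2 by -0.43, all with overlap. Postn, periostin, a matrix protein of activated fibroblasts, measured 10.74 and 10.38 on ILn against 9.37 to 9.78 on LP, MOLF and NZB and 10.32 on FVBn. Its ILn difference was 0.98 (SE 0.154, adjusted p = 0.07 in limma), and FVBn was again next to ILn. The 6 fibroblast markers outside the matrix set, Postn among them, had a median of 0.07, with Thy1 at 0.62 and Vim, vimentin, at -0.83.

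Markers of other tissues moved with the strains as well. The mean over the 38 matrix genes, centred on the 9 arrays, was 0.39 and 0.41 on ILn and 0.29 on FVBn, and between -0.41 and -0.06 on the LP, MOLF and NZB arrays. Of 7 salivary acinar genes 6 were measured, and all 6 rose in ILn, with a median difference of 5.16. The centred mean of these 6 was 3.56 and 3.45 on ILn and 3.41 on FVBn, -0.13 and 0.38 on MOLF, and -2.94 to -2.40 on LP and NZB. On all 4 LP and NZB arrays Amy1 and Dnase1 were at the floor. The erythroid genes (3 measured of 4) had a median of 1.74, with 2 called higher (0.364% of all tested probe sets). The 9 skeletal muscle genes had a centred mean of -0.34 and -0.29 on ILn, 1.29 to 1.72 on LP and NZB, -1.65 to -1.40 on MOLF and -2.31 on FVBn.

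Medians in ILn were 0.17 for luminal epithelium (8 of 8 measured), -0.05 for endothelium (7 of 8), 0.12 for adipocytes (5 of 8), 0.36 for macrophages (8 of 8), 0.09 for milk proteins (5 of 5) and -0.39 for basal and myoepithelial genes (6 of 8), with 0 called. The log2 ratio of 3' to 5' actin signal, a measure of RNA integrity, was 0.22 to 0.28 on ILn and FVBn and 0.60 to 1.12 on the other 6 arrays. The part of these tissues and of RNA quality in the matrix differences was not tested, and in bulk tumours fewer cells of a type and less RNA per cell cannot be told apart.

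**Figure D5:**
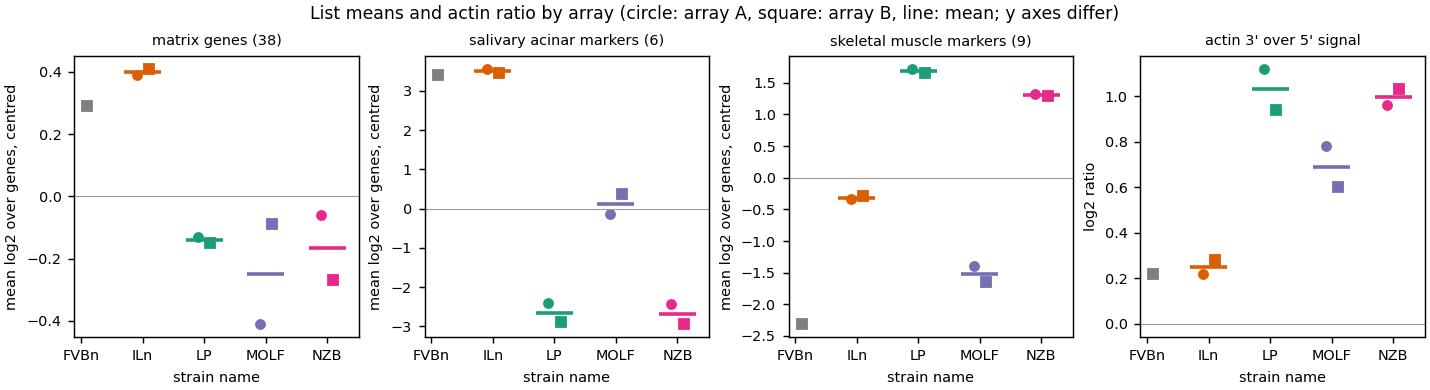
Mean log2 value over the 38 matrix genes, 6 salivary acinar markers and 9 skeletal muscle markers, each gene centred on the 9 strain arrays, and the log2 ratio of 3' to 5' actin signal, by strain name (circle for array A, square for array B, line for the mean; y axes differ). ILn and FVBn are the highest in the matrix and salivary panels and the lowest in the actin panel, while the muscle panel has LP and NZB on top.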

How the data were processed

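The authors deposited linear intensity, 1 value for each probe set on each array. How probes were summarised is not stated in the sources used here. On each array the mean after trimming the lowest and highest 2% was 150.0, apart from ILn A (499.9). The 66 control probe sets were left out of 12488, and quantile normalization of the 9 strain arrays was done with limma 3.58.1 (R 4.3.3). Log2 was taken before this normalization. Normalized values under their 30th percentile (intensity 27.0) were then raised to it, and probe sets above it on at least 2 of the 9 arrays were tested. The model (lmFit, eBayes with an intensity trend) had a mean for each of 5 strain names, 4 degrees of freedom for the residual, 3.3 (median) for the prior, and a median SD within strains of 0.337. The number of arrays limits the precision. The scripts were tested on simulated data with ILn shifts larger than any matrix difference in ILn described here, and with no array set apart. That test therefore does not cover effects of the size described.

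Symbols came from GEO's platform annotation (1 symbol for 10855 probe sets, several for 396, none for 1237), updated through Entrez identifiers, of which 10839 matched RefSeq. A gene's probe set is the tested one with the highest mean, and others are given for some of the genes where they differ. Values on every array are given for members with a call, the 2 members of each class with the widest range of strain means, the 2 with the smallest p in each comparison, and the best known of each class. The members and lists were chosen with earlier results of these data known. Array letters do not pair the arrays, and the alternatives tried are in the closing section.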

Additional observations from a re-analysis of the deposited data

Results flagged for a closer look

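The array whose title names no strain, which no comparison uses, had 26 of the 38 matrix genes above all 9 strain arrays and 2, Mgp (7.62) and Tnc (4.75, the floor), below all 9. Over all tested probe sets 16.4% were above and 17.3% below. It was set to the same distribution as the 9 arrays by rank. Col3a1 measured 11.06 there, Dcn 11.27, Sparc 11.04, Col1a1 11.64 and Lum 10.16, each above the highest strain array, while Bgn (10.23), Fbln2 (8.59) and Eln (9.68) lay within the range of the 9. Its centred mean over the matrix genes was 1.03, against 0.41 on the highest strain array. On the same array the centred mean was 3.31 for adipocyte, 3.46 for skeletal muscle, 2.83 for erythroid and 1.59 for endothelial markers and -1.09 for luminal epithelial markers. The part of those tissues in the matrix values was not tested.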

How the results depend on the processing

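In the F test 1 matrix gene passed, and 0 did under median centring, with the floor at the 10th percentile, with the title date as a block, with the array letter as a replicate block, or without MOLF A and NZB B; leaving out 1 array gave 0 to 1. In ILn 1 passed, and 0 did under median centring, the date block, the replicate block or without MOLF A and NZB B, with 0 to 1 when 1 array was left out. Counting any tested probe set of a gene, an alternative chosen after seeing the data, gave 2 in both. With dim probe sets kept in, 1 gene passed in LP and 1 in FVBn in place of 0, while calls over all probe sets went from 31 to 37 in LP and from 31 to 102 in FVBn; in NZB leaving out 1 array gave 0 to 1. The letters do not pair the arrays: over all tested probe sets the A deviations of different strains correlated at -0.71 to 0.13. Over all probe sets the letter block gave 28 calls in ILn in place of 40 and 31 in the F test in place of 74, and the date block 13 and 18.

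The median difference over the genes kept its direction under every alternative run. Median centring gave 0.68 in ILn (0.55), -0.04 in LP (-0.19), -0.24 in NZB (-0.11) and 0.40 in FVBn (0.31). LP was -0.28 within the largest group of title dates, and FVBn was 0.20 with the date block and 0.22 without MOLF A and NZB B. Leaving out 1 array gave 0.50 to 0.57 in ILn, -0.19 to -0.15 in LP, -0.30 to -0.16 in MOLF, -0.23 to -0.04 in NZB and 0.25 to 0.33 in FVBn. The causes were not tested. The counts of genes without MOLF A and NZB B were also chosen after seeing the data.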
